A study of Mus musculus with 4 samples.

Results

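The cell cycle and DNA replication genes described here were a list of 50 mouse genes, of which 14 act in DNA replication and 30 in mitosis. The other 6, called regulators here, are genes of transcription or chromatin in dividing cells and the kinase gene Melk. Members of the list were found by gene symbol among the probe sets of 4 Affymetrix 3′ expression arrays. Of the 50 members, 49 had at least 1 probe set that names no other gene, of 18193 genes on the arrays. The signal of Ccnb1 was not analysed here, while its promoter is among those counted below. Each array carried RNA of 1 group, namely Peyer's patch (PP) cells of NK318.1 mice, PP cells of germ-free (GF) mice, intestinal epithelial cells (IECs) of NK318.1 mice and IECs of GF mice. The NK318.1 mice were GF mice given 100000000 bacteria of the isolate Lactobacillus NK318.1 as their only microbe, and they were sampled 2 weeks later. Mice of both kinds were C57BL/6 and lived in isolators, so no group had a normal microbiota. The study describes pooled samples, so the spread between mice cannot be seen in 1 array per group, and no difference below has a test, an error or a p-value. Each difference is a log2 ratio of the signals of 2 arrays for the same probe set.

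Before a cell copies its DNA, Cdc6 and Cdt1 load the MCM helicase on origins of replication, and the genes of this step, like those of nucleotide supply, are switched on by E2F transcription factors as the cell enters S phase. Genes of mitosis come on later, when a repressor leaves the cell cycle genes homology region (CHR) of their promoters and activators bound there and at CCAAT boxes switch them on. In the small intestine the dividing cells are found in the crypts of the epithelium and, in the Peyer's patch, among the B cells of germinal centers.

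The promoters of the members differed between the groups by the motifs that this background names. RefSeq promoter windows (GRCm38.p6, 250 bases before to 50 after a gene start) were matched to 42 of the 50 members, in 45 windows. The CHR letters TTTGAA, on either strand, stood in 20 of 26 windows of mitotic genes (76.9%), in 1 of 13 of replication genes (7.69%) and in 17.9% of all 32851 windows. An E2F site, searched as TTTCCCGC, TTTGGCGC, TTTCGCGC or TTTGCCGC on either strand, stood in 6 of 13 replication windows (46.2%), in 1 of 26 mitotic windows, that of Cdk1 (3.85%), and in 2.26% of all windows. CCAAT, on either strand, was found in 22 of 26 mitotic windows (84.6%), in 9 of 13 replication windows (69.2%) and in 37.4% of all. Of the 6 regulator windows, 1 held the CHR letters, 2 an E2F site and 4 CCAAT. Matches of different motifs overlapped in 2 of the 45 windows. A match shows that the letters are there, not that a factor binds.

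The 4 windows below belong to the replication and mitotic genes at the ends of the ranges reported further down, among those with a window and a motif. They show the layouts just counted. No window was matched to Aurkb or Gins1, which also lay at such ends. They are RefSeq sequence, 5′ to 3′ on the strand of the gene, with the motifs in capitals. Ccnb2, a B-type cyclin, lies on the minus strand at chr9:70421505-70421804 and has CHR letters at −167 and +4 and 3 CCAAT boxes at −87, −54 and −21 from its start. Ndc80, a kinetochore protein that holds microtubules, lies on the minus strand at chr17:71526808-71527107, with the CHR letters on the reverse strand at +29 (printed as TTCAAA). Cdt1 lies on the plus strand at chr8:122567765-122568064, with an E2F site at +32. Rrm2, a subunit of ribonucleotide reductase, lies on the plus strand at chr12:24708004-24708303, with a CCAAT box at −50 and neither of the other motifs.
Ccnb2: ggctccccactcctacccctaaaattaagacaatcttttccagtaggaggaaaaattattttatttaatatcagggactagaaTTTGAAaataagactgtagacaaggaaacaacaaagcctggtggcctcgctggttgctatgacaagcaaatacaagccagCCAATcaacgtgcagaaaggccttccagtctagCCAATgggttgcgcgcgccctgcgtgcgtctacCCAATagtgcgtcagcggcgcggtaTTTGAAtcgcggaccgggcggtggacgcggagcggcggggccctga
Ndc80: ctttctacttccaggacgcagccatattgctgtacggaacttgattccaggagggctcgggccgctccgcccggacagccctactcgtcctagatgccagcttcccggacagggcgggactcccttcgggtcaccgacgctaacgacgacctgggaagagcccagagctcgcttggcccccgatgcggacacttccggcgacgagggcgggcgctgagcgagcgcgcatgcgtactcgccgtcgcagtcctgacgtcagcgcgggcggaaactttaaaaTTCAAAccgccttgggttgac
Cdt1: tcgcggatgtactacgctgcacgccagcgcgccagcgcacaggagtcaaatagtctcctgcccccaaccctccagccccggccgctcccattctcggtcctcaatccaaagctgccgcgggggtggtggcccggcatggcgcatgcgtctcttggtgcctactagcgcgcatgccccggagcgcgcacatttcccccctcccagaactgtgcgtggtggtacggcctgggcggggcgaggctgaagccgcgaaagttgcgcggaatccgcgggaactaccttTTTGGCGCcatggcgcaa
Rrm2: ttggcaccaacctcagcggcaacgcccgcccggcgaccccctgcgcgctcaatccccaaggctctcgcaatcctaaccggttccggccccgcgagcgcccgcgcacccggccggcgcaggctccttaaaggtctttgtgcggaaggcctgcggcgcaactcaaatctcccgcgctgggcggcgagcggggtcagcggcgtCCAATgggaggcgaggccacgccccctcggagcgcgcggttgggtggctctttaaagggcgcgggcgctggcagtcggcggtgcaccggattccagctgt

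Leukocyte and enterocyte markers told the 2 tissues apart as labelled, but markers of stomach and pancreas were higher in the NK318.1 IECs than in the GF IECs. Summed over 10 leukocyte markers the signal was 31414 and 29763 in the NK318.1 and GF PP, and 556 and 1252 in the NK318.1 and GF IECs. Over 15 enterocyte markers it was 266 and 287 in the NK318.1 and GF PP, and 40007 and 52223 in the NK318.1 and GF IECs. Gastric mucosa markers summed to 36721 in NK318.1 and 485 in GF IECs, with 4 of 12 under a signal of 15.5 in GF mice, and pancreatic acinar markers to 11553 and 1435. Median signals lay between 23.0 and 23.3 on all 4 arrays as deposited, whereas the array of NK318.1 IECs stood apart in the controls that follow. The 3′ to 5′ ratio of actin, which is high where RNA is broken, was 1.74 and 1.60 in the NK318.1 and GF PP, and 4.10 and 2.73 in the NK318.1 and GF IECs. Hybridization spikes, added to each sample before it goes on the array, had a median signal of 459 and 412 in the NK318.1 and GF PP, and of 1746 and 775 in the NK318.1 and GF IECs, a log2 ratio of 0.16 and of 1.11. Xist, which is expressed in female cells, had 4586 and 21.7 in the NK318.1 and GF PP and 4889 and 46.7 in the NK318.1 and GF IECs. The Y-linked Eif2s3y had 2.998 and 300.1 in the NK318.1 and GF PP and 2.41 and 147 in the NK318.1 and GF IECs. The sex of the pooled mice and colonization therefore cannot be told apart in either tissue.

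In the PP, nearly all members had a lower signal in NK318.1 mice than in GF mice, by a small amount. A floor was set at a signal of 15.5, the median over the arrays of the 40th percentile, lower signals were given its value, and a gene was taken as measured in a tissue where at least 1 array exceeded it. Of 48 members measured in the PP, 47 had a log2 ratio below 0, as had 57.2% of all 12736 measured genes. None was at least 2-fold lower (0.573% of all genes) or at least 2-fold higher (0.149%). At 1.5-fold, 10 members were lower, against 2.74% of all genes, and none was higher, against 0.927%. The median log2 ratio was −0.38 over the members and −0.03 over all genes. Scaling to the spikes moved both further down and turned neither. RNA of whole cell pools was measured, so fewer cells of a type and less RNA per cell cannot be told apart, here and below.

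**Figure D1:**
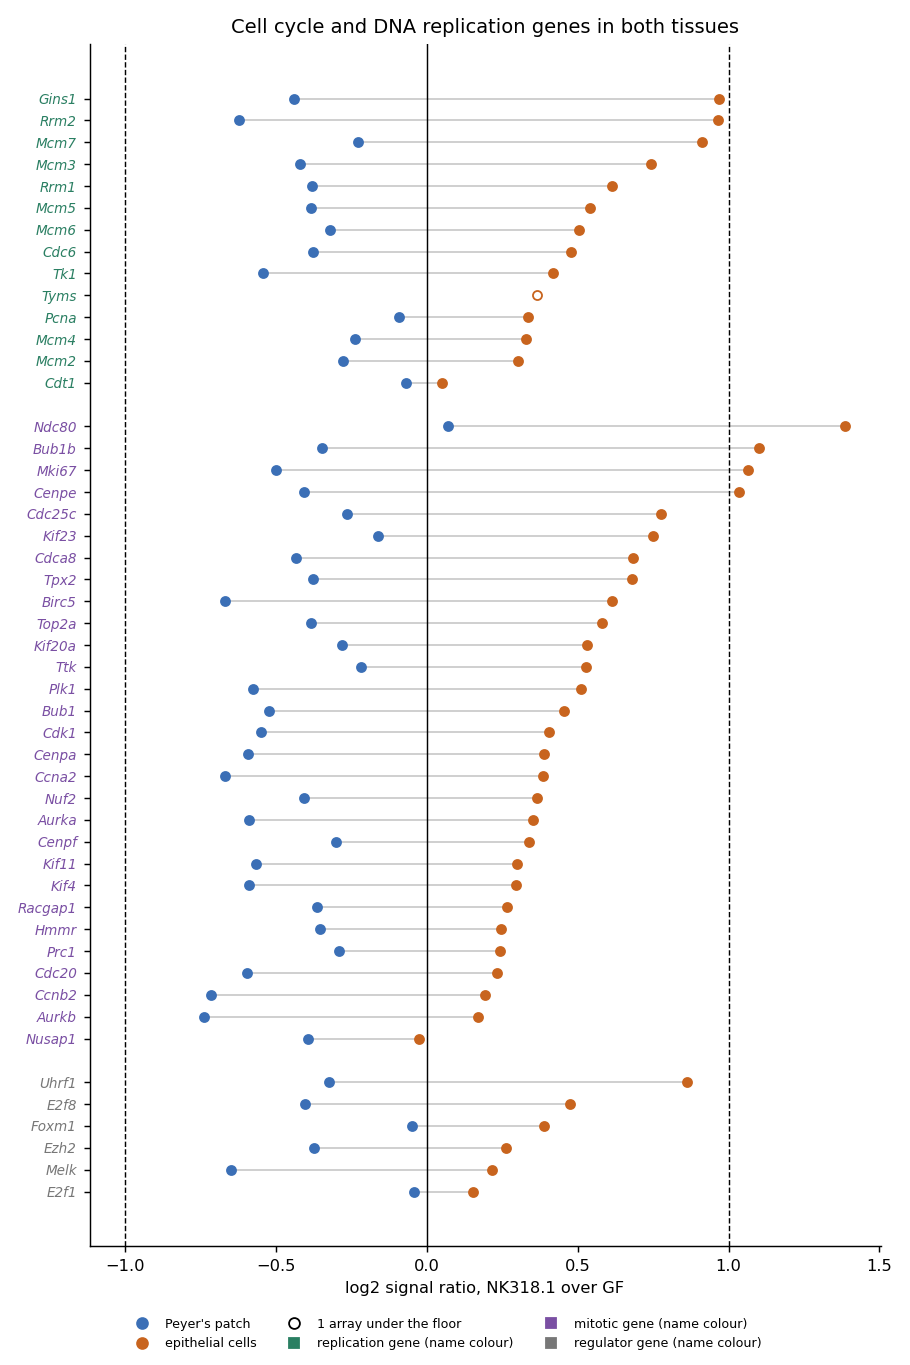
Log2 signal ratio of NK318.1 over GF (horizontal axis) for each of the 49 members, in the Peyer's patch (blue) and in epithelial cells (orange), with names coloured by role, dashed lines at 2-fold and an open point where 1 array lay under the floor. On the deposited scale 47 of 48 points lie below 0 in the Peyer's patch and 48 of 49 above 0 in epithelial cells, where scaling to the hybridization spikes leaves 1 above 0.

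Among the replication genes, all 13 that were measured in the PP lay below 0, with a median of −0.38. The helicase genes were close to each other. Mcm2 had a signal of 421 in NK318.1 and 511 in GF PP, and Mcm5 had 1105 and 1443. The 6 MCM genes ran from −0.42 (Mcm3) to −0.23 (Mcm7). Rrm2 stood lowest of the replication genes, at 373 in NK318.1 and 574 in GF PP, a log2 ratio of −0.62. Thymidine kinase Tk1, which salvages thymidine for DNA synthesis, came next with 78.7 and 115 in the NK318.1 and GF PP (−0.55). At the other end were Cdt1, with 777 in NK318.1 and 815 in GF PP (−0.07), and Pcna, the sliding clamp of the DNA polymerases, with 3125 and 3335 (−0.09). Gins1, a subunit of the replicative helicase complex, had 78.5 in NK318.1 and 107 in GF PP (−0.44). The 3 measured genes of nucleotide supply (Rrm1, Rrm2 and Tk1) had a median of −0.55 and the 10 genes of licensing and the fork −0.30.

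Of the 29 mitotic genes on the arrays, 28 lay below 0 in the PP, with a median of −0.41. The kinase gene Aurkb, the catalytic subunit of the chromosomal passenger complex, was the lowest member of all, with 50.3 in NK318.1 and 84.0 in GF PP (−0.74). Ccnb2, whose promoter is printed above, had 135 in NK318.1 and 222 in GF PP (−0.72). Birc5, the survivin subunit of the same passenger complex, had 147 in NK318.1 and 234 in GF PP (−0.67). The 3 passenger complex genes of the list thus had a median of −0.67, the lowest of the role groups. Incenp, the scaffold of that complex and not on the list, was nearer to 0, with 586 in NK318.1 and 643 in GF PP (−0.13). Genes that drive entry into mitosis and its exit were also among the lower ones, with a median of −0.59 over 7. Ccna2, the A-type cyclin of S phase and G2, had 238 in NK318.1 and 379.7 in GF PP (−0.67). Cdk1, the kinase that the cyclins activate, had 168 in NK318.1 and 246 in GF PP (−0.55). Kinetochore and spindle genes were nearer to 0, with medians of −0.38 over 8 and −0.37 over 9. Ndc80 was the only member above 0 in the PP, at 69.9 in NK318.1 and 66.5 in GF mice (0.07). Kif23, a kinesin of cytokinesis, had 120.4 in NK318.1 and 135 in GF PP (−0.16). Mki67, the gene of the proliferation antigen Ki-67, had 775 in NK318.1 and 1096 in GF PP (−0.50), and the topoisomerase gene Top2a had 399 and 521 (−0.38). The checkpoint gene Bub1b had 98.7 in NK318.1 and 126 in GF PP (−0.35). The kinesin gene Cenpe had 87.0 in NK318.1 and 115 in GF PP (−0.41), and Nusap1 of the spindle had 194 and 254 (−0.39).

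By their chosen probe sets, all 6 regulators lay below 0 in the PP, with a median of −0.35, although 2 were close to 0. E2f1, an activating E2F factor, had 38.5 in NK318.1 and 39.7 in GF PP (−0.04), and Foxm1, which activates mitotic genes, had 45.7 and 47.3 (−0.05). Both changed sign with another choice of probe set, so no direction is claimed for them in the PP, though the counts below 0 include them. Melk, a kinase of dividing cells, was lowest, with 48.1 in NK318.1 and 75.4 in GF PP (−0.65). E2f8, an E2F that represses, had 81.5 in NK318.1 and 108 in GF PP (−0.41), and Uhrf1, described below, had 249 and 311 (−0.32).

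In the IECs, nearly all members had a higher signal in NK318.1 than in GF mice on the deposited scale, a direction that scaling to the hybridization spikes turned. Of 49 measured members, 48 lay above 0 as deposited, as did 52.4% of all 13874 measured genes, and 1 lay above 0 after scaling to the spikes, which puts the median of all genes at −1.09. That scaling shifts every gene of the tissue by the same amount, so it has no bearing on where the members stand among the other genes, and after it 2.06% of all genes lay above 0. The median of the members was 0.42 and that of all genes 0.02 as deposited. Measured from the median of all genes, the replication genes lay 0.38 to 0.51 higher and the mitotic genes 0.38 to 0.49 higher over the other alternatives. At least 2-fold higher were 4 members, against 2.63% of all genes, and none was at least 2-fold lower, against 1.54%. At 1.5-fold, 15 were higher (5 replication, 9 mitotic and 1 regulator), against 9.31% of all genes, and none lower, against 6.8%. All IEC ratios below are those of the deposited scale, with the same reservation about direction.

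By the probe set that stood for each gene, the 4 members past 2-fold were mitotic. The replication genes Gins1 (0.97) and Rrm2 (0.96) lay just under that limit. Other probe sets past 2-fold belonged to the replication gene Mcm3 (1.14 and 1.01). Further ones belonged to the mitotic genes Cenpe (1.58), Cenpf (1.45), Kif11 (1.10) and Top2a (1.10). Of the 4 members, Ndc80 had the highest ratio, with a signal of 147 in NK318.1 and 56.5 in GF IECs (1.39). Bub1b, the checkpoint protein BubR1, had 195 in NK318.1 and 91.2 in GF IECs (1.10). Mki67 had 1052 in NK318.1 and 503 in GF IECs (1.06). Cenpe, a kinesin that moves chromosomes to the spindle equator, had 155 in NK318.1 and 75.5 in GF IECs (1.03). After scaling to the spikes, Ndc80 alone of the 49 members remained above 0. At the low end of the mitotic genes, Nusap1, a spindle microtubule protein, had 281 in NK318.1 and 287 in GF IECs (−0.03), the only member below 0 as deposited, though not where its probe sets were averaged (0.16). Aurkb, lowest in the PP, had 88.3 in NK318.1 and 78.5 in GF IECs (0.17). Ccnb2, next to it in the PP, had 275 in NK318.1 and 241 in GF IECs (0.19). Kif23 had 220.1 in NK318.1 and 131 in GF IECs (0.75). Cdk1 had 465 in NK318.1 and 351 in GF IECs (0.41), and Top2a had 480.5 and 322 (0.58). By role, the IEC medians were 0.39 for entry and exit (7 genes), 0.61 for the passenger complex (3), 0.49 for the kinetochore (8) and 0.29 for the spindle (9).

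The mitotic members not yet named were between these ends in both tissues. Among genes of entry and exit, Plk1, a kinase needed throughout mitosis, had 89.0 in NK318.1 and 133 in GF PP (−0.58), and 167 in NK318.1 and 117 in GF IECs (0.51). Cdc20, the activator of the anaphase-promoting complex, had 373 in NK318.1 and 564 in GF PP (−0.60), and 686 in NK318.1 and 584 in GF IECs (0.23). Aurka, a centrosome kinase, had 45.9 in NK318.1 and 69.0 in GF PP (−0.59), and 132 in NK318.1 and 103 in GF IECs (0.35). These 3 were closer to each other in the PP than in the IECs. Cdc25c, the phosphatase that activates Cdk1, was dim in the PP, with 15.8 in NK318.1 and 19.0 in GF mice (−0.27) against the floor of 15.5, and had 49.3 in NK318.1 and 28.8 in GF IECs (0.78). The third passenger gene, Cdca8, had 344 in NK318.1 and 466 in GF PP (−0.44), and 718 in NK318.1 and 447 in GF IECs (0.68). At the kinetochore, Cenpa, the histone of centromeres, had 219 in NK318.1 and 331 in GF PP (−0.59), and 286 in NK318.1 and 218 in GF IECs (0.39). By their chosen probe sets, the neighbours in role named next differed in size but not in direction. The checkpoint kinases Bub1 and Ttk had −0.52 and −0.22 in the PP and 0.45 and 0.53 in the IECs, and Cenpf and Nuf2 had −0.30 and −0.41 in the PP and 0.34 and 0.37 in the IECs. In the IECs a dimmer probe set of Bub1 gave −0.19, and those of Cenpf gave −0.29 and 1.45. Nuf2 is the partner of Ndc80 in 1 complex, yet Ndc80 had 0.07 in the PP and 1.39 in the IECs. Of the spindle genes, Tpx2, which activates Aurora A, had 55.4 in NK318.1 and 72.0 in GF PP (−0.38), and 95.0 in NK318.1 and 59.3 in GF IECs (0.68). The remaining spindle genes Kif20a, Kif4, Hmmr, Racgap1 and Prc1 ran from −0.59 to −0.28 in the PP and from 0.24 to 0.53 in the IECs. Hmmr changed sign in the IECs with another choice of probe set.

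All 14 replication genes lay above 0 in the IECs as deposited, with a median of 0.49. Gins1 had 208 in NK318.1 and 106 in GF IECs (0.97), the highest of the group. Rrm2 had 429.6 in NK318.1 and 220.3 in GF IECs (0.96), so it stood at the lower end of this group in the PP and at the upper end in the IECs. Mcm7 had 1506 in NK318.1 and 801 in GF IECs (0.91), and Mcm2, also of the helicase, 319 and 259 (0.30). Pcna had 2222 in NK318.1 and 1764 in GF IECs (0.33). Rrm1, the large subunit of ribonucleotide reductase, had 290.0 in NK318.1 and 378 in GF PP (−0.38), and 373 in NK318.1 and 244 in GF IECs (0.61). Both subunits thus lay on the same side of 0 in a given tissue, Rrm2 further from it than Rrm1. Tk1 had 224 in NK318.1 and 167 in GF IECs (0.42). Mcm3 had 252 in NK318.1 and 150.2 in GF IECs (0.74), and Mcm4, Mcm5 and Mcm6 had log2 ratios of 0.33, 0.54 and 0.50. Cdc6 had 48.6 in NK318.1 and 63.2 in GF PP (−0.38), and 51.8 in NK318.1 and 37.2 in GF IECs (0.48). Cdt1 was closest to 0, with 759 in NK318.1 and 733 in GF IECs (0.05), and it was among the members closest to 0 in the PP as well. Tyms, thymidylate synthase, had 20.0 in NK318.1 IECs and 7.43, under the floor, in GF IECs, at least 1.29-fold higher, and was under the floor in both PP arrays. A brighter probe set that also names the pseudogene Tyms-ps had 107 in NK318.1 and 150.4 in GF PP (−0.49), and 523 in NK318.1 and 272 in GF IECs (0.94). It was not counted, since it cannot say which of the 2 genes it reads.

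The regulators had an IEC median of 0.32. Uhrf1, which brings the maintenance DNA methyltransferase to replicated DNA, had 374 in NK318.1 and 206 in GF IECs (0.86). E2f8 had 258 in NK318.1 and 186 in GF IECs (0.47), and Foxm1 68.2 and 52.2 (0.39). Melk had 201 in NK318.1 and 173 in GF IECs (0.22). E2f1 was the lowest, at 44.8 in NK318.1 and 40.2 in GF IECs (0.15), and changed sign with another choice of probe set in this tissue too. Ezh2, the methyltransferase of Polycomb, had 321 in NK318.1 and 416 in GF PP (−0.37), and 384 in NK318.1 and 320.1 in GF IECs (0.26).

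**Figure D2:**
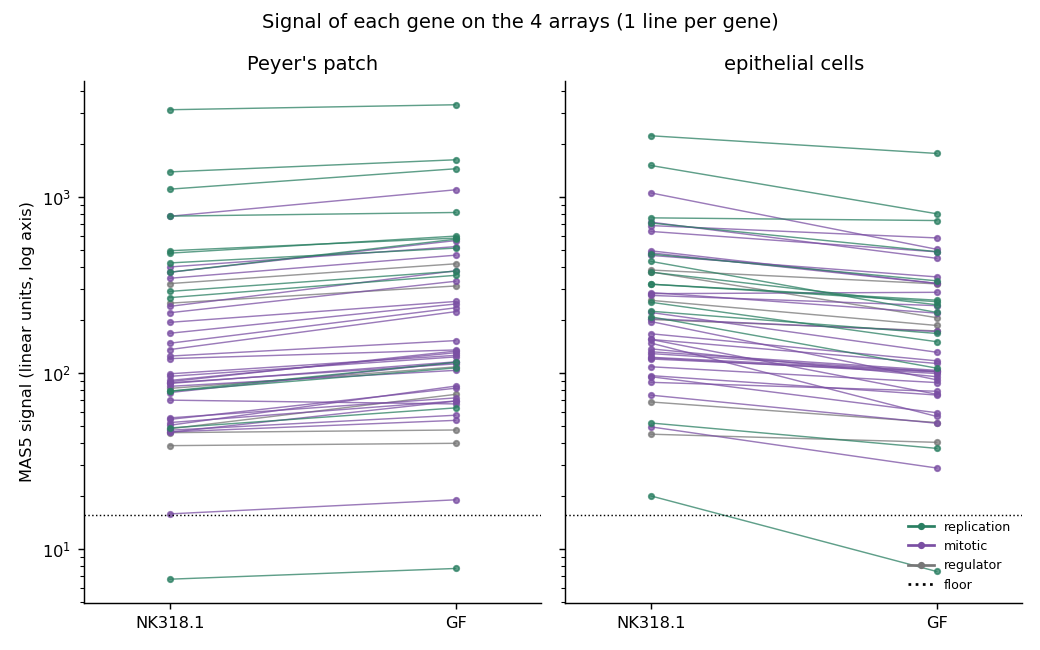
Deposited signal of each member (log axis) in NK318.1 and GF mice, in the Peyer's patch (left) and in epithelial cells (right), with 1 line per gene coloured by role and the floor of 15.5 dotted. Lines slope up towards GF in the Peyer's patch and down towards GF in epithelial cells, as deposited; scaling to the hybridization spikes turns the slope in epithelial cells.

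The median ratios of the replication genes and the mitotic genes were set against each other in each tissue. The median of the mitotic genes minus that of the replication genes was −0.03 in the PP and −0.09 in the IECs, and without replicate arrays neither has an error. In the IECs the sign of that difference depended on the probe sets, being 0.06 where a gene's probe sets were averaged. Measured in both tissues were 48 members, of which 46 were below 0 in the PP and above 0 in the IECs as deposited, against 30.3% of 12260 genes, and scaling to the spikes ended that pattern in the IECs. The size of the ratio in one tissue told little of its size in the other. Across these 48 members, Pearson's r between the PP and IEC ratios was 0.17 and Spearman's rho 0.11, over points that share their pair of arrays within a tissue.

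All probe sets of the members, the chosen ones included, were then counted together, although they read the same RNA. The 49 members had 113 probe sets, and 35 members had more than 1. In the PP, 91 were measured, of which 85 lay below 0, with a median of −0.38. In the IECs, 98 were measured, of which 87 lay above 0 as deposited, with a median of 0.41, before the turn that the spikes bring. Probe sets other than the chosen one had the sign of the chosen one in 38 of 43 cases in the PP (27 genes) and in 38 of 49 in the IECs (30 genes). They differed in size more than in sign. For Bub1b, the other 2 measured probe sets gave 0.51 and 0.20 in the IECs, under 2-fold. For Cenpe the other gave 1.58, with 162 in NK318.1 and 54.0 in GF IECs. Rrm2 had −0.76 and −0.80 from its other probe sets in the PP, and 0.50 and 0.81 in the IECs. Kif11, a spindle kinesin, had −0.57 from the chosen probe set in the PP and 0.32 from a dimmer one, with 31.9 in NK318.1 and 25.7 in GF PP. Aurkb had −0.55 from another probe set in the PP and −0.06 in the IECs, opposite in sign to its chosen one there.

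**Figure D3:**
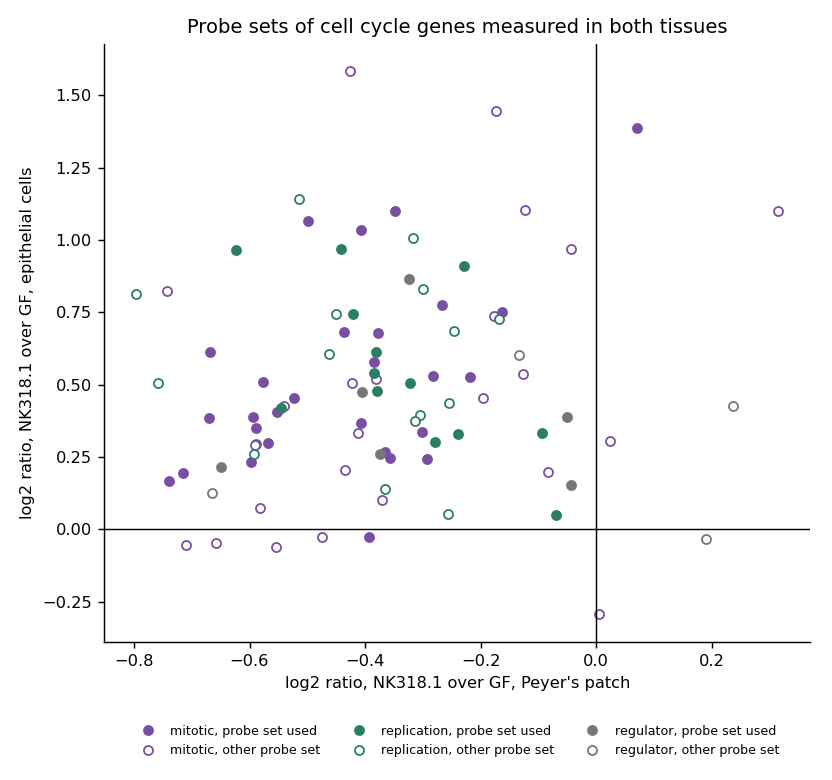
Log2 ratio of NK318.1 over GF in the Peyer's patch (horizontal) against that in epithelial cells (vertical) for the 91 member probe sets measured in both tissues, filled where the probe set stood for its gene and open otherwise, coloured by role. On the deposited scale 80 of the 91 lie in the upper left, lower in the Peyer's patch and higher in epithelial cells, and scaling to the hybridization spikes shifts all points down by 1.11 and left by 0.16.

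Set tissue against tissue, the replication and the mitotic genes stood apart by their medians, while single genes of the 2 groups overlapped. The log2 ratio of PP over IECs was taken within NK318.1 mice and within GF mice, for the same probe set. In NK318.1 mice the median was −0.04 for the replication genes (7 of 14 above 0) and −0.87 for the mitotic genes (0 of 29 above 0), and in GF mice it was 0.92 (12 of 13) and 0.06 (17 of 29). All genes had a median of −0.11 in NK318.1 and −0.04 in GF mice, with 44.2% and 48.1% of genes above 0. Mitotic minus replication came to −0.83 in NK318.1 mice and −0.86 in GF mice, so the gap was alike in both kinds of mice. Mcm5 had 1105 in the PP and 709.6 in the IECs of NK318.1 mice (0.64), and 1443 in the PP and 488 in the IECs of GF mice (1.56). Mcm4, likewise a subunit of the helicase, had log2 ratios of 0.63 in NK318.1 and 1.20 in GF mice. Birc5 had the lowest ratio of the mitotic genes in NK318.1 mice, with 147 in the PP and 493 in the IECs of NK318.1 mice (−1.74), and had 234 in the PP and 322 in the IECs of GF mice (−0.46), where Ttk was lowest (−0.82). Melk was lowest of all members, at −2.06 in NK318.1 and −1.20 in GF mice. Tk1 (−1.51 in NK318.1 mice) and Gins1 (−1.41) were replication genes that lay with the mitotic ones. The mitotic gene Mki67 lay above the replication median in GF mice (1.12). Of 48 members measured in both kinds of mice, 24 were higher in the PP than in the IECs in GF mice and lower in NK318.1 mice, against 8.62% of all 13716 genes measured in both. These tissue ratios use the same 4 arrays as the ratios above and are no second observation of them. Scaling to the spikes made all 3 role medians positive in both kinds of mice, for instance 0.97 for mitotic and 1.80 for replication genes in NK318.1 mice. It shifts all genes alike and so cannot change the gap between the groups.

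**Figure D4:**
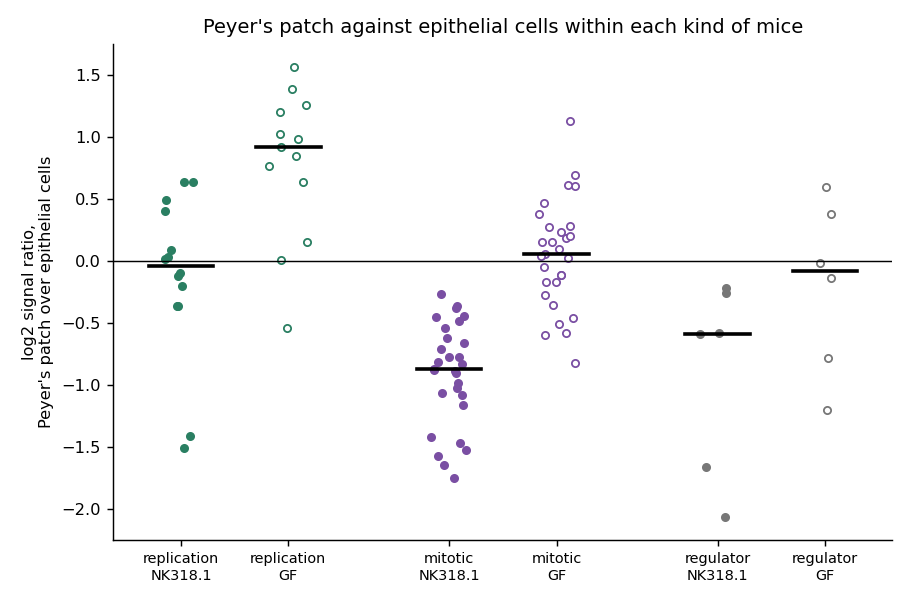
Log2 signal ratio of the Peyer's patch over epithelial cells for each measured member, by role group, in NK318.1 mice (filled) and GF mice (open), with bars at the medians. The median of the mitotic genes lies below that of the replication genes in both kinds of mice, by 0.83 and 0.86 on the log2 scale, while the points of the groups overlap. Scaling to the hybridization spikes shifts all genes of a kind of mice alike and moves all medians above 0.

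Genes of the same processes outside the list lay with its members. Of 41 other replication genes, 37 were below 0 in the PP (median −0.26) and all 41 above 0 in the IECs as deposited (median 0.50), which the spikes turn in the same way as for the members. Of all measured genes, 57.2% were below 0 in the PP. In the IECs 52.4% of all genes were above 0 and 2.63% were at least 2-fold higher. The catalytic polymerase subunits Pold1, with 380.4 in NK318.1 and 149 in GF IECs (1.35), and Pole, with 169 and 69.4 (1.29), were past 2-fold, and Slbp, which binds histone mRNA, was lowest there, with 511 and 495 (0.05). Lowest in the PP was Tipin, which protects stalled forks, with 309 in NK318.1 and 542 in GF PP (−0.81), and highest was Gins3, with 60.6 and 54.97 (0.14). Of the other mitotic genes, 57 of 63 measured were below 0 in the PP (median −0.34) and 55 of 64 above 0 in the IECs as deposited (median 0.45). Past 2-fold in the IECs were the condensin genes Ncapg (1.60) and Smc2 (1.40), the passenger complex scaffold Incenp (1.24), the kinesin Kif20b (1.22) and the kinetochore scaffold Knl1 (1.15). Ncapg had 209.6 in NK318.1 and 69.0 in GF IECs. Lowest in the IECs was Ect2, an activator of RhoA in cytokinesis, with 140.2 in NK318.1 and 173 in GF IECs (−0.30). In the PP, Cks1b, a subunit of the Cdk complexes, was highest, with 2058 in NK318.1 and 1595 in GF PP (0.37), and Cip2a lowest, with 34.6 and 64.5 (−0.90). No gene of these 2 lists was past 2-fold in the PP, against 0.573% of all genes lower and 0.149% higher.

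A mixed list of genes of cell cycle exit and G1 did not share the pattern by its median. It held cyclin D genes, Cdk inhibitors and growth arrest genes, and also Cdk, Myc, E2F and related genes. Its median was −0.08 in the PP, with 24 of 36 below 0, against 57.2% of all genes. In the IECs the median was −0.08, with 21 of 36 below 0 and 15 above 0, against 52.4% of all genes above 0. This median covers genes on both sides of 0 and does not stand for each kind of gene in the list. At least 2-fold higher in the IECs, against 2.63% of all genes, were Cdkn1c, the Cdk inhibitor p57, and Mybl2, which activates mitotic genes. Cdkn1c had 109 in NK318.1 and 50.2 in GF IECs (1.12), and Mybl2 had 45.0 and 21.8 (1.05). Both were below 0 in the PP (−0.29 and −0.32), so they had the signs of most members in both tissues. The Cdk inhibitor gene Cdkn2b was lower, at 301 in NK318.1 and 688 in GF IECs (−1.19), and was also the lowest of the list in the PP, at 34.98 and 62.7 (−0.84). E2f5, a repressing E2F of resting cells, was the highest of the list in the PP, with 107 in NK318.1 and 84.96 in GF mice (0.34).

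Markers of several cell types differed beside the cell cycle genes, and their part in the result was not tested. Over all measured genes, 57.2% lay below 0 in the PP and 52.4% above 0 in the IECs. At least 2-fold higher in the IECs were 2.63% of all genes. In the PP, 7 of 10 germinal center B cell markers lay above 0 (median 0.34), opposite to the members, with a summed signal of 6357 in NK318.1 and 5648 in GF mice. Among them Bcl6, the factor that defines those cells, had 721 in NK318.1 and 525 in GF PP (0.46), while Gcsam had 79.4 and 169 (−1.09). General B cell markers lay below 0 in 9 of 10 cases (median −0.22), on the side of the members, with a summed signal of 16033 in NK318.1 and 17305 in GF PP. Plasma cell markers, 8 of 8 below 0 (median −0.36), had a summed signal of 15252 in NK318.1 and 18140 in GF PP, and macrophage and dendritic cell markers, 13 of 14 below 0 (median −0.47), had 5193 and 6619. T cell markers lay above 0 in 11 of 12 cases (median 0.23). Larger shifts were seen in the IECs. Crypt stem cell markers lay above 0 in 10 of 13 cases as deposited (median 0.25), led by Prom1 with 1429 in NK318.1 and 682 in GF IECs, and their summed signal was 6912 and 5877, while Lgr5, the defining marker of those cells, had 119 and 122. Intraepithelial and cytotoxic lymphocyte markers, 11 of 12 below 0 (median −2.37), had a summed signal of 544 in NK318.1 and 5883 in GF IECs, and Paneth cell markers, 6 of 6 below 0 (median −1.43), had 17184 and 36685. Enterocyte markers, summed above, lay below 0 in 14 of 15 cases (median −0.50). Fibroblast and matrix markers lay above 0 in 8 of 11 cases as deposited (median 1.00, 5 past 2-fold), with a summed signal of 1642 in NK318.1 and 638 in GF IECs, and below 0 in 9 of 11 cases in the PP (median −0.24), with 2070.1 and 2055. The largest part of that PP sum was Thy1, also counted as a T cell marker, with 1192 in NK318.1 and 911 in GF PP. Of the gastric mucosa and pancreatic acinar markers given above, 10 of 12 and 8 of 8 measured were past 2-fold. The NK318.1 IEC pool was higher in the cell cycle genes as deposited. It was thus also the pool with higher stomach and pancreas transcripts, lower lymphocyte transcripts, brighter spikes and the higher 3′ to 5′ ratio.

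**Figure D5:**
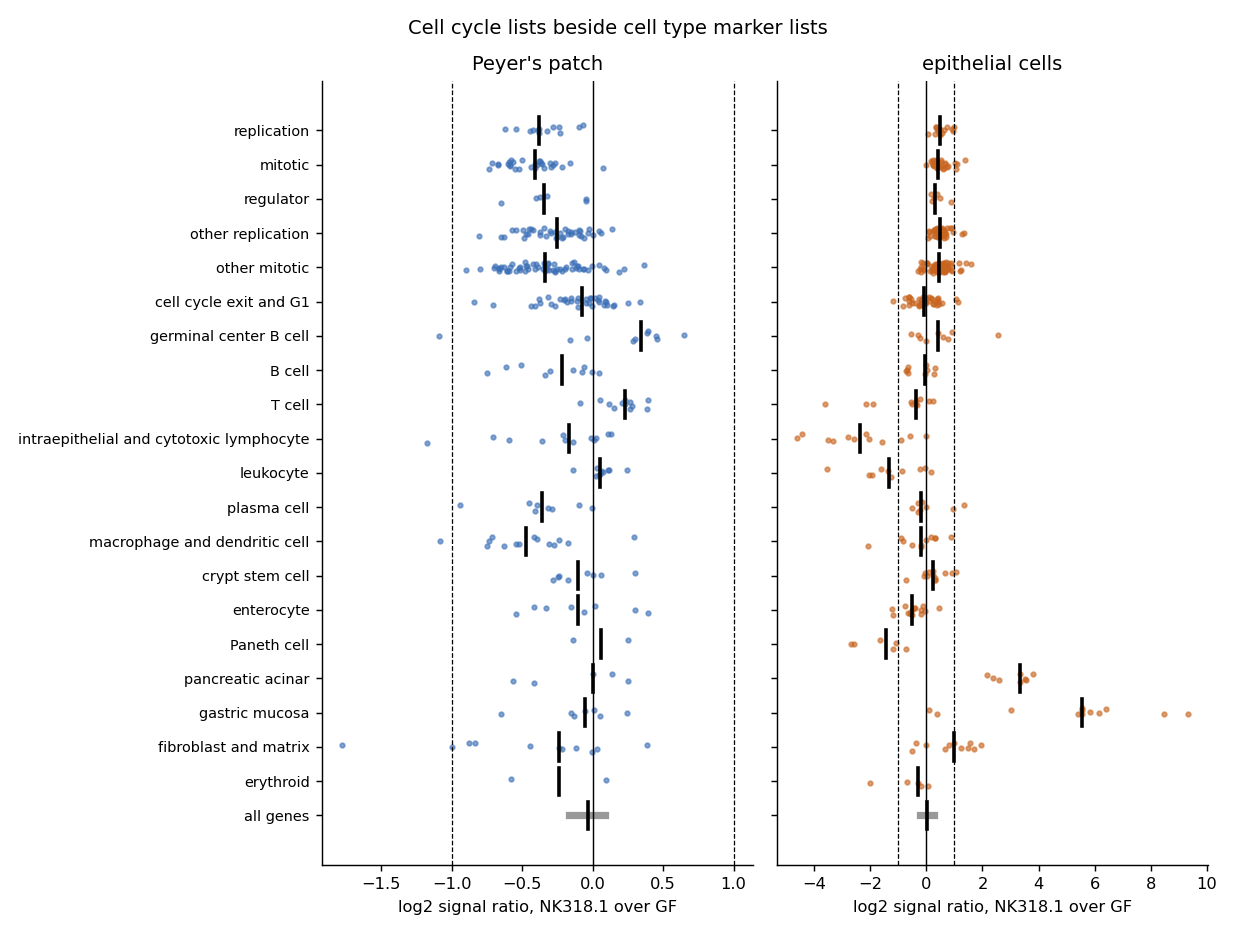
Log2 ratio of NK318.1 over GF for each measured gene (points) of the 3 member groups, 3 further cell cycle lists and 14 cell type lists in the Peyer's patch (left) and in epithelial cells (right, wider axis), with bars at the medians, dashed lines at 2-fold and the grey band spanning the middle 50% of all genes. As deposited, replication and mitotic lists lie below all genes in the Peyer's patch and above them in epithelial cells (medians −0.38 and −0.41 against 0.49 and 0.41 for the members), while scaling to the hybridization spikes, which shifts all genes of a tissue alike, turns the sign in epithelial cells.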

How the data were processed

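Cells of the Peyer's patch and epithelial cells of GF and NK318.1 mice were hybridized to 4 Affymetrix arrays, 1 per group. The authors made the deposited intensity, linear and 1 value per probe set, with MAS5. The sources used here name neither its version nor its settings. R and limma are named in the study's methods, but 1 array per group allows no test.

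The intensity was used as deposited. Beside 64 controls there were 45037 probe sets, of which 34945 name 1 gene in the annotation table, 932 several and 9160 none, and those naming 1 gene were used. Where a gene had several, the one brightest on average over the 4 arrays (mean of log2) stood for it. Intensities under the floor (median over arrays of the 40th percentile, 15.5) were raised to it before log2. Above the floor lay 59.1% to 61.0% of the probe sets of an array, and the number of arrays limits the precision. Counts were made at the study's limit of 2-fold and at 1.5-fold.

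The members and the gene lists were chosen with earlier results of these data known. The text gives every array's value for members at least 2-fold apart in a tissue, for the 2 highest and 2 lowest members of each role group, and for Mki67, Pcna, Top2a and Cdk1, with others by role. Of the other cell cycle lists it names those past 2-fold and the highest and lowest. Bcl6, Gcsam, Prom1, Lgr5, the sex-linked genes and other members named beside these were picked after their values were known.

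Other settings tried were quantile normalization and median centring of the arrays, floors from the 25th and 60th percentiles, none at all, 3 other rules for the probe set of a gene, and limits of 1.5-fold and 3-fold. Scaling to the hybridization spikes (9 probe sets) and leaving out members near the floor were chosen after seeing the data. Simulated signals with known ratios were used to check the scripts, which ran in Python 3.11.15 with matplotlib 3.10.9, scipy 1.17.1, pandas 2.3.3 and numpy 2.4.6.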

Additional observations from a re-analysis of the deposited data

Results flagged for a closer look

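The ratio of NK318.1 over GF had opposite signs in the 2 tissues, as deposited, for 46 of 48 members and for the medians of 5 cell cycle lists. The median log2 ratio of NK318.1 over GF in IECs minus that in the PP was 0.87 for the replication genes, 0.81 for the mitotic genes and 0.67 for the regulators. It was 0.76 for the other replication genes and 0.78 for the other mitotic genes. Rrm2 (1.59) and Birc5 (1.28) are the members at least 1.5-fold lower in the PP and 1.5-fold higher in the IECs. Differences of 1.56 for Mki67, 1.45 for Bub1b, 1.44 for Cenpe and 1.41 for Gins1 also exceeded that of Birc5, with PP ratios under 1.5-fold. With 1 array per tissue and kind of mice these differences were not tested, and scaling to the hybridization spikes puts the IEC medians below 0 as well.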

How the results depend on the processing

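No paired analysis was possible because a group consisted of 1 array. Of the main counts, 61 of 68 alternative values lay within 1.5 times the reported one. Of the medians and their differences, 111 of 134 moved by less than 0.10. Some of these could not move, since median centring and spike scaling leave mitotic minus replication unchanged. That difference (−0.03 in the PP and −0.09 in the IECs) is smaller than the limit of 0.10, so its sign could change without counting as moved. Scaling to the hybridization spikes moved most. It put the PP medians at −0.53 (replication), −0.56 (mitotic) and −0.50 (regulators) and the IEC medians at −0.61, −0.70 and −0.78, with 0 members at least 2-fold higher (0.454% of all genes), 2 at least 2-fold lower (59.4%) and 1 above 0 (2.06%) in the IECs. Bub1b (−0.0051), Cenpe (−0.071) and Mki67 (−0.041) were then below 0 in the IECs. The medians of PP over IECs were then 1.80, 0.97 and 1.25 in NK318.1 mice and 1.81, 0.94 and 0.81 in GF mice, listed in that sequence of groups. The median of all genes was then −0.19 in the PP and −1.09 in the IECs. This follows from the scaling, which subtracts a tissue's spike log2 ratio (0.16 and 1.11) from every gene. The cause of the spike difference was not tested. Under quantile normalization 2 members were at least 2-fold higher in the IECs, and PP over IECs came to −1.02 (mitotic) and −0.74 (regulators) in NK318.1 mice and to 0.79 (replication), −0.19 (mitotic) and −0.30 (regulators) in GF mice. With the mean over probe sets the last 3 values were 0.79, −0.071 and −0.23, and mitotic minus replication in the IECs was 0.056. Without less specific probe sets that difference was 0.014 and the mitotic IEC median 0.51. So the sign of mitotic minus replication in the IECs, and that of the mitotic genes in PP over IECs in GF mice, depended on the processing. At 1.5-fold 10 members were lower in the PP and 15 higher in the IECs, and at 3-fold 0 were higher in the IECs. Over the alternatives fixed at the start, the single-gene sign changed for E2f1 and Foxm1 in the PP and for E2f1, Hmmr and Nusap1 in the IECs. Tyms and Cdc25c lay under 2 times the floor on at least 1 array.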
